A study of Mus musculus with 21 samples.

Results

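Urocortin 3 and the receptors of its peptide family are described here in islets of Langerhans, across mice fed regular diet (RD), high-fat diet (HFD) or the same high-fat diet with O304 added (HFD-O304). The 3 genes are Ucn3, which encodes the peptide, and Crhr1 and Crhr2, which encode the receptors, and they make up 3 of the 55536 genes counted. They were taken by symbol and chosen by their levels in the 3 diet groups of these same libraries, so that the differences between diets are given as descriptions with no test. All 3 had the minimum of 10 read pairs over the libraries and were among the 27229 genes compared.

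Total RNA of 21 islet samples was sequenced as paired 50-base reads, 7 samples for each diet. Each sample held 150 islets from a pool of 5 mice, so that a replicate is a pool and not an animal. All mice were CBA males, 10 weeks old when the diets began. RD mice ate a regular diet, HFD mice ate the high-fat diet alone, and HFD-O304 mice ate the high-fat diet with 0.8 mg of O304 per g. O304 is a small molecule that activates AMPK, a kinase that responds to low cellular energy. The study's text gives the time on diet as 9 weeks in one place and 10 weeks in another.

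Urocortin 3 belongs to the corticotropin-releasing hormone (CRH) family of peptides and is stored with insulin in mouse β-cells, where its gene is switched on as the cells mature. It binds the receptor encoded by Crhr2, which δ-cells of the islet carry, and there it promotes release of somatostatin, a hormone that restrains the secretion of insulin and glucagon. The receptor encoded by Crhr1 prefers CRH and urocortin 1 and raises glucose-stimulated insulin secretion when it is activated on β-cells. Both are class B receptors that act mainly through the stimulatory G protein and cAMP.

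Read pairs on genes ranged from 13809266 in HFD-O304 replicate 2 to 48922569, with a median of 38719302. Values are normalized counts, the read pairs divided by a size factor for each library. HFD-O304 replicate 1 carries the diet label of the HFD group and was placed by its title, and HFD-O304 replicate 2 is the shallowest library, so differences are also given without both. Replicates 1 to 4 and 5 to 7 have library numbers of separate series, called library sets here. The labels describe no batch. Nothing in the labels says whether pools shared a cage or a day.

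Ucn3 (ENSMUSG00000044988) lies on the minus strand at chr13:3940688-3945349 of GRCm38, with 1 transcript of 2 exons. No annotated gene overlaps it, and the nearest protein-coding gene, Tubal3, lies 5411 bases away. The protein is encoded in exon 2 alone, in 495 bases at chr13:3941156-3941650. The study measured Ucn3 by PCR in other mice with the primers below, which are shown because they fix the part of the transcript that assay reads. The forward primer has 10 bases in exon 1 and 10 in exon 2, the latter in capitals, and the reverse primer lies in exon 2. The product of 43 bases spans the only exon junction of the transcript.

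Ucn3 forward: ccacttacagGGAGCGATGC

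Ucn3 reverse: cagcaggaagtaggtgggca

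Crhr1 (ENSMUSG00000018634) lies on the plus strand at chr11:104132855-104175523 and Crhr2 (ENSMUSG00000003476) on the minus strand at chr6:55090049-55133016. The annotation gives Crhr1 1 transcript and Crhr2 9. No annotated gene overlaps either receptor gene. The 250 bases before the RefSeq start of each of the 3 genes are shown because the ligand and the receptors differed among the diets in unlike ways, and they are read from GRCm38.p6, 5′ to 3′ on the strand of the gene, with motif matches in capitals. They lie at chr13:3945350-3945599 on the minus strand for Ucn3, chr11:104132531-104132780 on the plus strand for Crhr1 and chr6:55133017-55133266 on the minus strand for Crhr2.

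Ucn3: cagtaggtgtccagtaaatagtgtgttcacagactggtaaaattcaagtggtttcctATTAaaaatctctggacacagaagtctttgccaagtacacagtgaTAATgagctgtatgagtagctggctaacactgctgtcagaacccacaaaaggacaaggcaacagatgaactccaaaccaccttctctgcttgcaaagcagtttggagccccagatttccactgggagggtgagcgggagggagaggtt

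Crhr1: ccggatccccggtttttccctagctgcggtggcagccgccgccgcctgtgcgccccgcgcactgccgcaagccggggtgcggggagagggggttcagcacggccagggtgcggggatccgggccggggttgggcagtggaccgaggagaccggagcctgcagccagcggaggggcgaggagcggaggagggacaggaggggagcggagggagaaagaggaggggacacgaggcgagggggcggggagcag

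Crhr2: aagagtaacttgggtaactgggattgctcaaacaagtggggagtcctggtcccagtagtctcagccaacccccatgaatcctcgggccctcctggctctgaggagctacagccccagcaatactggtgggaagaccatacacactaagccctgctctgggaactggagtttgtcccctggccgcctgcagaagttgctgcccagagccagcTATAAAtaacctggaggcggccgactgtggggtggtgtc

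The 3 windows differed in base composition. G and C made up 74.8% of the Crhr1 window, above 95.8% of the 32851 promoter windows of the same length. They made up 57.6% for Crhr2, above 65.8% of windows, and 46.4% for Ucn3, above 28.4%. The letters TAAT, the core bound by homeodomain factors such as PDX1, occurred at 2 places in the Ucn3 window, 193 and 148 bases before the start, and 54.9% of all windows hold them. The Crhr2 window holds TATAAA 39 bases before the start, as 12.4% of all windows do. Only 1 start of Crhr2, which has 9 annotated transcripts, was read, and which start islets use was not examined. Neither receptor window held TAAT. TGACGTCA and TGACG, letters of the cAMP response element with TGACG inside TGACGTCA, CACGTG, a form of the E-box, and TAATTA, which contains TAAT, had no match in any of the 3 windows, against 1.55%, 17.8%, 6.02% and 4.84% of all windows. Both strands were searched. A match is a description of these letters and not a binding site.

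The ligand was by far the most abundant of the 3 transcripts. Per kb of exon, Ucn3 reached a mean of 13499 ± 1451 normalized counts in RD islets (SD, n = 7), 10823 ± 2707 in HFD islets and 15453 ± 1047 in HFD-O304 islets. Those levels ranked 45, 52 and 32 among the 27229 genes. Crhr1 had 21.8 ± 7.71 counts per kb in RD islets, 6.59 ± 3.21 in HFD islets and 40.1 ± 6.50 in HFD-O304 islets. Crhr2 had 7.92 ± 0.875, 6.91 ± 1.27 and 7.77 ± 1.06 counts per kb in the same order. Exon length was taken over all annotated transcripts, 2460 bases for Crhr1 and 5115 for Crhr2. The level of Crhr2 per kb thus depends on which of its transcripts islets use. Glp1r, the gene of the GLP-1 receptor and a class B receptor gene of β-cells, stood at 4561 ± 359 counts per kb in RD islets. Crhr1 in RD islets lay beside Adcyap1r1, the gene of the PACAP receptor, at 21.6 ± 4.85 counts per kb, and Crhr2 beside Sctr, the gene of the secretin receptor, at 6.09 ± 1.65.

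**Figure D1:**
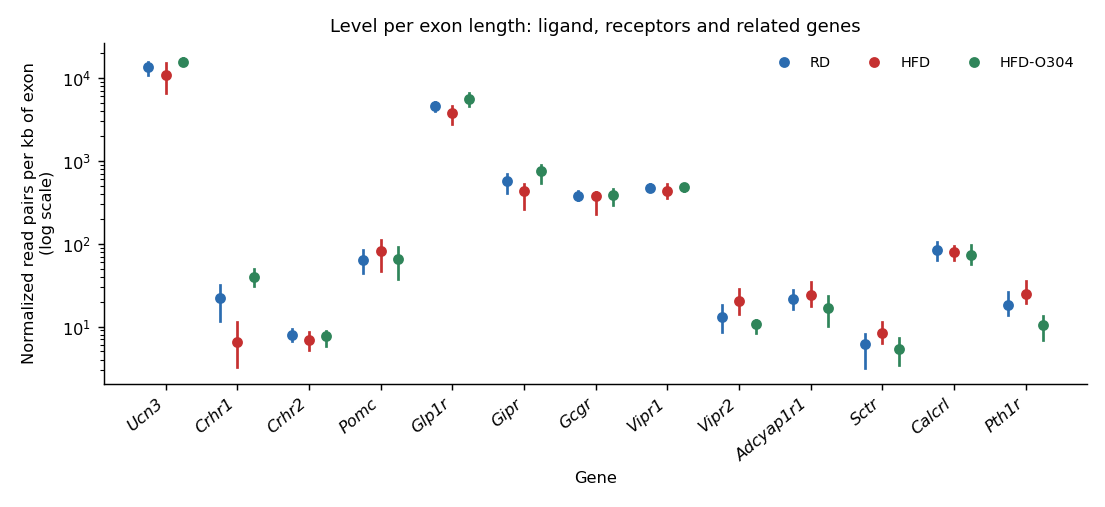
Normalized read pairs per kb of exon (vertical axis, log scale) for Ucn3, Crhr1, Crhr2, Pomc and 9 other class B receptor genes (horizontal axis). Points are means of 7 libraries, blue for RD, red for HFD and green for HFD-O304 islets, and bars run from the lowest to the highest library. Ucn3 lies above every other gene drawn, Crhr1 spans 6.59 to 40.1 between its group means, and Crhr2 stays between 6.91 and 7.92.

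Ucn3 was lowest in HFD islets and highest in HFD-O304 islets. In RD islets the normalized count of Ucn3 ran from 15954 to 22814 with a median of 20005. HFD islets ran from 9660 to 22706 with a median of 15843. HFD-O304 islets ran from 21265 to 25727 with a median of 22569. Ucn3 in HFD islets overlapped both other groups, since HFD replicate 7, the highest of its group, lay inside the range of HFD-O304 islets, whereas the other 6 HFD libraries lay below every HFD-O304 library. The group means of Ucn3 were 19952 ± 2145, 15997 ± 4001 and 22839 ± 1547 (SD, n = 7 each).

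On the log2 scale Ucn3 differed by -0.32 between HFD and RD islets (standard error 0.11), by 0.52 between HFD-O304 and HFD islets (standard error 0.11) and by 0.20 between HFD-O304 and RD islets (standard error 0.11). Of 49 pairs of 1 library from each group, the HFD-O304 library had more Ucn3 than the HFD library in 45 and more than the RD library in 43, and the HFD library exceeded the RD library in 8. The ranges of Ucn3 overlapped in all 3 comparisons. With 1 library left out at a time, the difference between HFD and RD islets ran from -0.43 without HFD replicate 7 to -0.22 without HFD replicate 1. Without HFD-O304 replicates 1 and 2 the differences from HFD and RD islets were 0.55 and 0.24.

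The 7 HFD libraries were spread more widely in Ucn3 than the libraries of the other diets. The coefficient of variation, the SD as a percentage of the mean, was 25.0% in HFD islets against 10.8% in RD and 6.77% in HFD-O304 islets. Read counting alone corresponds to 0.841% over the HFD libraries, which held 6819 to 26124 pairs on Ucn3. Within the HFD group Ucn3 was split by library set. HFD replicates 1 to 4 averaged 13526 ± 2683 and replicates 5 to 7 averaged 19291 ± 2958 (SD, n = 4 and 3), with no overlap between them, while the RD sets averaged 19787 and 20172 and the HFD-O304 sets 22757 and 22948.

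**Figure D2:**
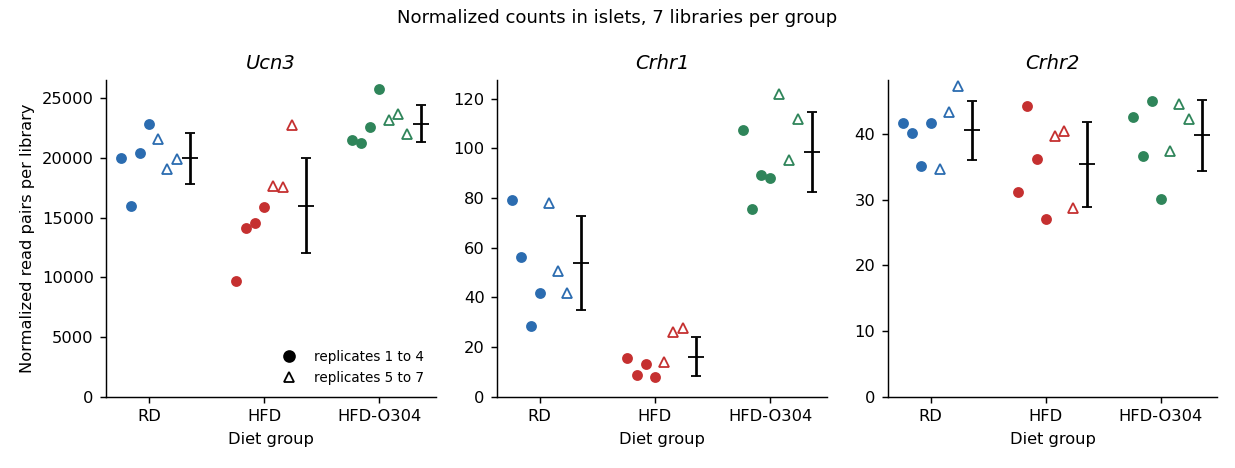
Normalized read pairs (vertical axes, from 0) of Ucn3, Crhr1 and Crhr2 in each library, by diet (horizontal axes). Filled circles are replicates 1 to 4, open triangles are replicates 5 to 7, and the bar beside each group is the mean with its SD (n = 7). All 7 HFD libraries lie below every RD and HFD-O304 library for Crhr1, whereas the 3 groups overlap for Ucn3 and Crhr2.

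Within replicates 1 to 4 Ucn3 differed by -0.55 between HFD and RD islets (standard error 0.13) and by 0.74 between HFD-O304 and HFD islets (standard error 0.13). Within replicates 5 to 7 the same differences were -0.064 (standard error 0.082) and 0.25 (standard error 0.082). In replicates 5 to 7, therefore, Ucn3 in HFD and RD islets differed by less than the error. That small difference rests on HFD replicate 7, at 22706 normalized counts. HFD replicates 5 and 6, at 17651 and 17516, lay below the RD libraries of that set, 19100 to 21538. In a fit with an interaction of diet and library set, the difference in replicates 5 to 7 minus that in replicates 1 to 4 was 0.49 (standard error 0.18) for HFD against RD islets and -0.50 (standard error 0.18) for HFD-O304 against HFD islets. These values are a description with no test, since the sets were compared after their Ucn3 levels had been seen. The difference between HFD-O304 and RD islets was close in both sets, 0.19 and 0.18.

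Crhr1 showed the widest span of the 3 genes. In RD islets its normalized count ran from 28.6 to 79.0 with a median of 50.8. In HFD islets it ran from 8.01 to 27.8 with a median of 14.2, and in HFD-O304 islets from 75.8 to 122 with a median of 95.3. Every HFD library was below every RD library and every HFD-O304 library, although the gap to RD islets was narrow, 27.8 against 28.6. HFD-O304 and RD islets overlapped, with the HFD-O304 library higher in 47 of 49 pairs.

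The mean of Crhr1 in RD islets was 53.7 ± 18.97, that of HFD islets 16.2 ± 7.89 and that of HFD-O304 islets 98.6 ± 15.98 (SD over 7 libraries). It was 3.32-fold lower in HFD than in RD islets, a log2 difference of -1.73 (standard error 0.26). It was 6.12-fold higher in HFD-O304 than in HFD islets, 2.61 on the log2 scale (standard error 0.25), and 1.84-fold higher than in RD islets, 0.88 (standard error 0.22). Of the 27229 genes, 0.687% lay lower in HFD than in RD islets with no overlap, 2.56% lay higher in HFD-O304 than in HFD islets with no overlap, and 0.694% did so against RD islets. Crhr1 was the only one of the 3 genes without overlap, in 2 of its 3 comparisons. Since its values chose it, nothing further is read from that.

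The counts behind Crhr1 were small. The 7 HFD libraries held 8, 10, 11, 13, 15, 24 and 32 read pairs on the gene, while RD islets held 379 in all and HFD-O304 islets 783. The exact Poisson 95% interval of these sums, which covers counting error only, was 93.1 to 136 for HFD islets, 342 to 419 for RD islets and 729 to 839.8 for HFD-O304 islets. Counting alone would give Crhr1 a coefficient of variation of 27.6% in HFD islets where 48.6% was measured, 14.5% in RD islets where 35.3% was measured, and 10.9% in HFD-O304 islets where 16.2% was measured. The measured spread of Crhr1 was above its counting error in each group.

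The direction of Crhr1 was the same in both library sets. HFD and RD islets differed by -2.21 within replicates 1 to 4 (standard error 0.32) and by -1.33 within replicates 5 to 7 (standard error 0.28). HFD-O304 and HFD islets differed by 3.03 (standard error 0.32) and 2.26 (standard error 0.26). For HFD-O304 against RD islets Crhr1 gave 0.82 and 0.92. The interaction estimates, replicates 5 to 7 minus 1 to 4, were 0.88 (standard error 0.47) for HFD against RD islets and -0.78 (standard error 0.46) for HFD-O304 against HFD islets, again with no test. With HFD-O304 replicates 1 and 2 both left out, the Crhr1 differences from HFD and RD islets were 2.64 and 0.92.

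**Figure D3:**
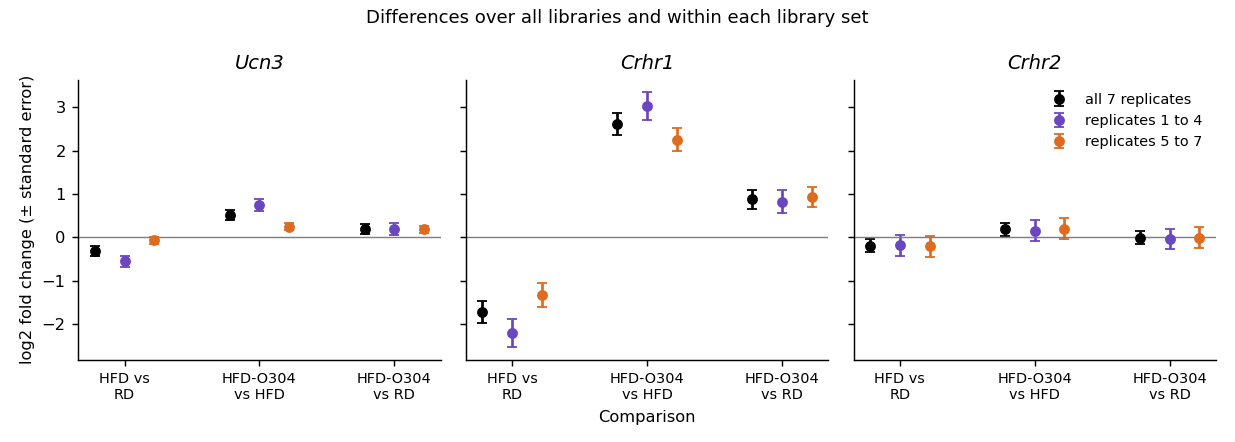
Log2 fold changes (vertical axis) of Ucn3, Crhr1 and Crhr2 in the 3 comparisons (horizontal axes), over all 7 replicates (black), within replicates 1 to 4 (purple) and within replicates 5 to 7 (orange), with bars of 1 standard error. The Ucn3 difference between HFD and RD islets is -0.55 in the first set and -0.064 in the other, while the Crhr1 differences keep their direction and those of Crhr2 lie between -0.20 and 0.20.

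Crhr2, the receptor gene that urocortin 3 itself acts through, differed little among the diets. Its normalized count ran from 34.6 to 47.2 in RD islets with a median of 41.6. It ran from 27.0 to 44.2 in HFD islets with a median of 36.2, and from 30.0 to 44.9 in HFD-O304 islets with a median of 42.2. The 3 ranges of Crhr2 overlapped, and 6 of 7 HFD-O304 libraries lay inside the range of RD islets. The differences between group means, -5.20, 4.42 and -0.782 counts for HFD minus RD, HFD-O304 minus HFD and HFD-O304 minus RD islets, were each smaller in size than the spread within groups, 5.59, 5.98 and 4.96 counts (pooled SD).

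The log2 difference of Crhr2 was -0.19 between HFD and RD islets with an interval of -0.49 to 0.10 (1.96 standard errors on each side), 0.18 between HFD-O304 and HFD islets with an interval of -0.11 to 0.48, and -0.013 between HFD-O304 and RD islets with an interval of -0.31 to 0.28. These intervals leave room for a fall of up to 0.49 in HFD against RD islets and a rise of up to 0.48 in HFD-O304 against HFD islets. Between HFD-O304 and RD islets they leave room for a change of up to 0.31 lower or 0.28 higher. The sign of that last difference turned with no minimum count or without any 1 of 7 libraries (-0.049 to 0.048 over the 21 libraries left out). The 21 libraries held 14 to 64 read pairs each on Crhr2. Its coefficient of variation in RD islets, 11.04%, was below the 15.8% that counting alone gives, and in HFD and HFD-O304 islets, at 18.4% and 13.6%, it was near the 17.4% and 16.8% from counting. Spread between pools was thus not detectable for Crhr2 at this depth.

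The balance of the receptor transcripts differed among the diets. Per kb, the ratio of Crhr1 to Crhr2 had a median of 2.43 in RD islets (1.70 to 4.68), 0.751 in HFD islets (0.408 to 2.02) and 5.25 in HFD-O304 islets (4.12 to 6.78). Per kb, the levels of the receptors in HFD islets did not differ beyond their spread, 6.59 ± 3.21 against 6.91 ± 1.27 counts. Ratios to Crhr2 depend on the exon length taken for it, 5115 bases over 9 transcripts, which scales every diet group alike. In normalized counts, not divided by length, HFD islets had 16.2 ± 7.89 of Crhr1 and 35.3 ± 6.51 of Crhr2. Ucn3 exceeded Crhr1 by a median of 626-fold in islets of RD mice, 1849-fold in those of HFD mice and 414-fold with O304, and Crhr2 by 1663-fold, 1500-fold and 1841-fold.

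No relation between the ligand and a receptor within a diet passed a test. For Ucn3 and Crhr1 over the 7 libraries, Pearson's r was -0.11 in RD islets, 0.43 in HFD islets and -0.026 in HFD-O304 islets, with exact permutation p of 0.823, 0.343 and 0.956 (two-sided). Spearman's rho was -0.25, 0.46 and 0.071, with exact p of 0.595, 0.302 and 0.906. After the 2 libraries farthest from the median of Ucn3 were left out, r was 0.29, 0.64 and -0.18. Over the 9 relations of the 3 genes in the 3 groups, every adjusted p was 0.956 for r and 1 for rho (exact permutation), and the library sets of 3 or 4 samples were too small for values of their own.

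Other peptides and partners of the CRH family were almost absent. Crh, which encodes CRH, had 2 read pairs over the 21 libraries, Ucn, which encodes urocortin 1, had 3, Ucn2 had 5 and Mc2r, the ACTH receptor gene, had 2. Crhbp, whose protein binds CRH and urocortin 1 in solution, had 0 of 789394089 read pairs, which allows up to 3 pairs in that total for counting error only. These 5 genes were under the minimum of 10 pairs and were not compared. Pomc, the ACTH precursor gene, was measured at 84.6 ± 19.1 normalized counts for RD islets, 108.9 ± 27.5 for HFD islets and 86.3 ± 25.98 for HFD-O304 islets (SD over 7 libraries), and did not pass in any comparison (edgeR adjusted p of 0.285, 0.272 and 0.968). Ucn3 was thus the only abundant ligand gene of the family, with 433245 read pairs against 1275 for Crhr1 and 845 for Crhr2.

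The cell types of the islet were checked by marker genes, since in whole islets fewer cells of a type and less RNA per cell cannot be told apart. All markers of each list were found and no defining marker was at 0 in any library, with Ins2 for β-cells at 5855400 to 8682700 normalized counts. The summed β-cell list of 9 genes ran from 10199000 to 12328000 in RD islets, 11805000 to 13785000 in HFD islets and 9407500 to 11148000 in HFD-O304 islets. Ucn3 and the β-cell sum did not follow the same order of diets. Most of that sum was Ins2, with a mean of 7251600 of 11227000 in RD islets. The sum thus mainly reads insulin RNA and cannot stand for the share of β-cells. Of the β-cell markers 1 was called higher and 2 lower in HFD against RD islets (among Iapp, Slc2a2 and Slc30a8). In HFD-O304 against HFD islets 2 were called higher and 3 lower (those with Ins1 and Ins2, all by edgeR). The α-cell list of 7 genes summed to 843870 to 1053600 in RD islets, 388670 to 709170 in HFD islets and 854700 to 1144700 in HFD-O304 islets, which is the order of Ucn3 and Crhr1. This order was not particular to α-cells. The δ-cell sum had it too (means of 104450, 66577 and 121810 for RD, HFD and HFD-O304 islets), as did Ppy of PP cells (131150, 109450 and 136190). The means of the other lists did not follow it. Of the α-cell markers 4 were lower and 2 higher in HFD against RD islets, and 5 higher and 2 lower in HFD-O304 against HFD islets. Most of the α-cell sum was Gcg, the glucagon gene, with a mean of 851480 of 903060 in RD islets. Most of the δ-cell sum was Sst, 100700 of 104450. These sums thus mainly read hormone RNA and likewise cannot stand for the share of these cells. The part of these cell types in the values of Ucn3 and Crhr1 was not tested.

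The δ-cell list, of the cells that carry Crhr2, summed to 86506 to 138250 in RD islets, 47149 to 104970 in HFD islets and 83866 to 160210 in HFD-O304 islets, with 3 of 4 genes lower in HFD against RD islets and 4 of 4 higher in HFD-O304 against HFD islets. Between HFD-O304 and RD islets 0 β-cell, α-cell and δ-cell markers were called by edgeR (8 at an unadjusted p under 0.05, and 1 called by DESeq2). Markers of cells outside the endocrine islet were also present. Acinar markers summed to 3030 to 272590 in RD islets, 627 to 199530 in HFD islets and 416 to 89365 in HFD-O304 islets, with ranges that overlapped among all 3 groups, and 0 of 8 were called in any comparison (0 also at an unadjusted p under 0.05 with edgeR and 0 with DESeq2). The smaller lists gave calls in HFD-O304 against HFD islets for 2 of 4 duct, 2 of 5 endothelial, 1 of 5 macrophage, 3 of 5 stromal and 1 of 4 Schwann cell markers, and for 0 of these in HFD against RD islets, where DESeq2 called 1 duct, 1 endothelial and 1 macrophage marker and edgeR had 12 of the 23 at an unadjusted p under 0.05. In HFD-O304 against RD islets 1 duct, 1 endothelial and 1 Schwann cell marker were called. Ppy, of PP cells, was not called in any comparison.

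The pathway around Ucn3 was read from 4 lists of 71 genes in all, of which 65 had enough reads, and a gene was called at an edgeR adjusted p under 0.01 over all genes. In HFD against RD islets, 5 of the 65 were lower and 0 higher, 7.69% of the genes listed beside 3.54% of all genes (1.54% lower and 2% higher). In HFD-O304 against HFD islets 14 were higher and 6 lower, 30.8% beside 11.9% of all genes (5.08% higher and 6.79% lower). In HFD-O304 against RD islets 2 were higher and 2 lower, 6.15% beside 1.31% of all genes (0.404% higher and 0.903% lower). The comparisons share their libraries in pairs, HFD in the first 2 and RD in the first and the last. The lists were drawn up with earlier results of these islets known and are described by these counts alone. Of the 27229 genes, 13216 had a mean of at least 50 normalized counts. The shares over all genes here and below are therefore not matched to the lists in expression level, and no excess is read from them.

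Somatostatin is the hormone whose release urocortin 3 promotes, and its axis was read from 10 genes. In HFD against RD islets 3 of these were called, all lower, and in HFD-O304 against HFD islets 5 were called, all higher. Between HFD-O304 and RD islets 0 were called, by edgeR and by DESeq2, with 3 at an unadjusted p under 0.05. The calls were 30%, 50% and 0% of the list in these comparisons, beside 3.54%, 11.9% and 1.31% of all genes. The median log2 differences were -0.38, 0.65 and 0.062 in the same order, beside -0.0044, 0.027 and 0.0078 over all genes.

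Sst, which encodes somatostatin, had a mean of 100700 ± 17988 normalized counts for RD islets, 63869 ± 19006 for HFD islets and 117160 ± 25844 for HFD-O304 islets (SD over 7 libraries). Its log2 difference was -0.66 for HFD against RD islets (standard error 0.15, edgeR adjusted p = 0.00646) and 0.88 for HFD-O304 against HFD islets (standard error 0.15, adjusted p = 0.000109). The call between HFD and RD islets was lost when any 1 of 9 libraries was left out (RD replicates 1, 5, 6 and 7 and HFD replicates 1 to 5). Within replicates 1 to 4 the Sst difference was -0.90 and within replicates 5 to 7 it was -0.39, where the adjusted p was 0.17.

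Ghsr, the ghrelin receptor gene of δ-cells, gave -0.92 for HFD against RD islets (edgeR adjusted p = 0.00309) and 0.85 for HFD-O304 against HFD islets (adjusted p = 0.00194). Rbp4, the retinol-binding protein gene, gave -0.46 (adjusted p = 0.00161) and 0.78 (adjusted p = 4.8e-07). The call of Ghsr between HFD and RD islets was lost without RD replicate 7 or without HFD replicate 4. Hhex, a transcription factor gene of δ-cells, and Sstr2, a somatostatin receptor gene, were called only in HFD-O304 against HFD islets, at 0.76 and 1.05. Within replicates 5 to 7 alone, the calls of Ghsr in both comparisons, of Rbp4 between HFD and RD islets and of Hhex were lost. Sst, Hhex, Rbp4 and Ghsr are also the 4 genes of the δ-cell list, so that the axis and that list are not separate measurements. Sstr3, the other somatostatin receptor named here, had log2 differences of 0.19, -0.074 and 0.11 and was not called.

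Class B receptors, the family of Crhr1 and Crhr2, moved in both directions with O304. Of 12 measured genes, 2 were higher and 2 lower in HFD-O304 than in HFD islets, and 0 were called between HFD and RD islets by edgeR, with 6 at an unadjusted p under 0.05 and 1 called by DESeq2. The medians were 0.067, -0.03 and -0.069 for HFD against RD, HFD-O304 against HFD and HFD-O304 against RD islets. In the same order, 0%, 33.3% and 8.33% of the list were called, beside 3.54%, 11.9% and 1.31% of all genes. Ghrhr, the thirteenth gene of the list, had 0 of 789394089 read pairs, which likewise allows up to 3.

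Glp1r, the most abundant receptor gene of the list per kb, was higher in HFD-O304 than in HFD islets, 32962 ± 3975 against 22074 ± 3216 normalized counts (log2 difference 0.58, standard error 0.087, edgeR adjusted p = 1.62e-05). Gipr, the GIP receptor gene, was higher by 0.81 (adjusted p = 0.000103). Vipr2, a receptor gene for the peptides VIP and PACAP, was lower by -0.91 (adjusted p = 0.000111) and Pth1r, the parathyroid hormone receptor gene, by -1.28 (adjusted p = 3.99e-06). Pth1r was also lower in HFD-O304 than in RD islets, -0.85 (adjusted p = 0.00446), a call lost without any 1 of RD replicates 2 and 3 and HFD-O304 replicates 1, 4 and 6. That call of Pth1r was also lost within each library set alone, and the call of Vipr2 within replicates 5 to 7 alone. Crhr1 differed by 2.61 between HFD-O304 and HFD islets, but since its values chose it, that difference is not ranked beside those of the other class B genes.

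The largest list held 42 genes of the stimulatory G protein and cAMP, the route by which both CRH receptors signal. In HFD against RD islets 2 were called, both lower, in HFD-O304 against HFD islets 7 were higher and 4 lower, and in HFD-O304 against RD islets 2 were higher and 1 lower. These calls were 4.76%, 26.2% and 7.14% of the list, beside 3.54%, 11.9% and 1.31% of all genes. The medians of the list, -0.038, 0.075 and 0.029, lay close to those of all genes. The called genes included phosphodiesterases, arrestins and receptor kinases, and in both comparisons with HFD-O304 islets they were of mixed direction.

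Pde1c, a phosphodiesterase gene whose enzyme degrades cAMP and cGMP, followed the order of Crhr1, with 580.4 ± 55.3 normalized counts for RD islets, 377 ± 55.0 for HFD islets and 906 ± 129.8 for HFD-O304 islets (SD over 7 libraries). It differed on the log2 scale by -0.63 between HFD and RD islets (standard error 0.096, edgeR adjusted p = 0.00017), by 1.27 between HFD-O304 and HFD islets (adjusted p = 5.54e-10) and by 0.64 between HFD-O304 and RD islets (adjusted p = 0.000109). Grk5, a kinase gene that desensitises G protein-coupled receptors, gave -0.51 for HFD against RD islets (adjusted p = 0.0021) and 0.83 for HFD-O304 against HFD islets (adjusted p = 1.36e-06). The call of Grk5 between HFD and RD islets was lost within replicates 5 to 7 alone. That of Pde1c between HFD-O304 and RD islets was lost within replicates 1 to 4 alone.

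Other cAMP genes were called in HFD-O304 against HFD islets. Crem, a cAMP-responsive transcription factor gene, gave -0.58 (edgeR adjusted p = 0.00775), Gng2, a G protein γ subunit gene, -0.55 (adjusted p = 1.85e-05), and Pde4d, another phosphodiesterase gene, -0.44 (adjusted p = 0.000434). Crtc2, a co-activator gene of CREB, was higher by 0.37 (adjusted p = 0.000108). Against RD islets, HFD-O304 islets had more of the adenylyl cyclase gene Adcy1, 1.11 (adjusted p = 0.00034), and less Arrb1, a β-arrestin gene, -0.41 (adjusted p = 0.0065). The call of Crem was lost without any 1 of HFD replicates 1, 4 and 5 and HFD-O304 replicates 2, 3, 5, 6 and 7, and that of Arrb1 against RD islets without any 1 of RD replicates 3 to 7 and HFD-O304 replicates 1, 2, 3, 5 and 7. Within replicates 5 to 7 alone the calls of Pde4d and Crtc2 were lost, and within replicates 1 to 4 alone those of Crem and Adcy1. That of Arrb1 against RD islets was lost within each library set alone.

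**Figure D4:**
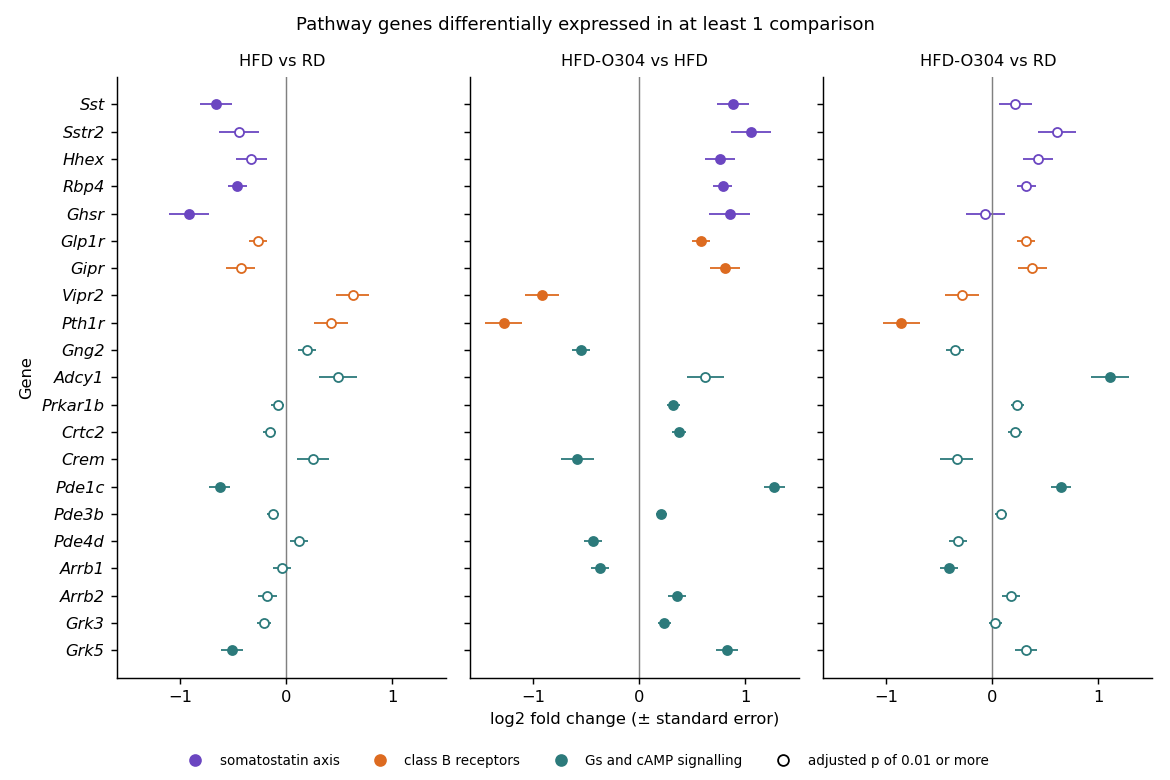
Log2 fold changes with bars of 1 standard error (horizontal axes) for the 21 pathway genes called in at least 1 comparison (vertical axis), in HFD vs RD, HFD-O304 vs HFD and HFD-O304 vs RD islets. Filled points have an edgeR adjusted p under 0.01, open points do not, and colours mark the list. Of these, 5 are called in HFD vs RD islets, all lower, 20 in HFD-O304 vs HFD islets and 4 in HFD-O304 vs RD islets.

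Genes whose levels ran most closely with each of the 3 were found by Pearson's r on log2 normalized counts over the 21 libraries, among 13216 genes with a mean of at least 50 counts. These values describe libraries that share diet, pool and depth, and no test is attached. For Ucn3 the highest were Selenow, a selenoprotein gene (r = 0.950), Gnai2, an inhibitory G protein gene (0.949), Gstt1, a glutathione transferase gene (0.948), Slc5a6, a vitamin transporter gene (0.937), and Khk, the fructose kinase gene (0.934). After each group's mean was subtracted, Selenow (0.923), Gnai2 (0.904) and Gstt1 (0.894) were still among the first 5, with Fam151a (0.902) and Gm45847 (0.897). Spearman's rho was lower for each of these, at 0.85, 0.79, 0.67, 0.79 and 0.58 in the order named.

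For Crhr1 the first 5 were Prkcb, a protein kinase C gene (r = 0.953), Trim35 (0.944), the potassium channel gene Kcnk3 (0.940), the cation channel gene Trpm5 (0.936) and Irx2, an α-cell marker (0.935). Without the group means, r was at most 0.768, for Pogk and Kcnk3, followed by Shisal1 (0.767), Pacs1 (0.744) and Nqo1 (0.731), so that only Kcnk3 was in both sets of 5. For Crhr2, Ice1 was first in both, at 0.813 over all libraries and 0.832 without the group means. Cysltr2 (0.719), Plekhm3 (0.698), Atp9b (0.698) and Wdfy3 (0.692) came next over all libraries, and Nup210 (0.704), Sufu (0.703), Inppl1 (0.691) and Atp9b (0.677) without the group means.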

How the data were processed

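The authors aligned the paired reads of 21 islet libraries to GRCm38 with STAR, with gene models of Ensembl release 96 named in the study's methods, and deposited the raw STAR counts, in read pairs for each gene. Pairs that match several places or genes are not in these counts. The strand used is not given in the sources used here. The reverse-strand column was used, since it held 28.8 to 36.3 times the other strand. Rows that name no gene took 18.5% to 24.9% of pairs and were left out. Samples were grouped by diet from titles and diet labels. Symbols came from GENCODE vM21 for 55450 of 55536 identifiers, and promoters from RefSeq, matched by symbol for 3 of 3 genes. Replicates of a group differed beyond counting noise (chi-square per gene 8.05 to 101 over 63 pairs), so that none was a duplicate.

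Genes with at least 10 read pairs over all libraries were fitted together in edgeR 4.0.16 (R 4.3.3, TMM factors 0.907 to 1.07, quasi-likelihood, 3 groups, no covariates), with Benjamini-Hochberg adjusted p over all 27229 genes and a threshold of 0.01. Every adjusted p in the text comes from that test unless another is named. Normalized counts used the size factors of DESeq2 1.42.0, and log2 values for correlations a pseudocount of 1. Depth, 13809266 to 48922569 pairs per library, limits the receptors most. The test was tested on simulated data. Scripts used Python 3.11.15, pandas 2.3.3 and scipy 1.17.1.

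The 3 genes, the pathway lists and the marker lists were chosen with earlier results of these data known. Named genes are the 3, the CRH family, genes of the other lists past the threshold (at most 6 per comparison for cAMP signalling) with Sst, Sstr3 and Glp1r in any case, and the 5 genes most alike by r. Alternatives covered the test, normalization, filter, strand, replicate block, library set, samples in the fit and each library left out. Leaving out HFD-O304 replicates 1 and 2 together, and the interaction estimates by library set, were added after the data were seen. ChIP-seq was not analysed here.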

Additional observations from a re-analysis of the deposited data

Results flagged for a closer look

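For the 3 genes and the called pathway genes, 81 groups of 7 libraries were examined for a library far from the rest (by the gap to its neighbour as a share of the group's range, Dixon's test), and 5 stood out, where chance gives about 1 in 20. Ucn3 had 0.814% of its read pairs on the other strand in HFD-O304 replicate 1, 244 pairs, against 0.0617% to 0.184% in the other libraries of the group. Over all genes the other strand took 3.36% of pairs in that library, the highest share of the 21. Sst reached 101200 normalized counts in HFD replicate 7, against 44880 to 68970 in the rest of the group. Rbp4, another δ-cell gene, reached 3607 in the same library, against 2165 to 2669. HFD replicate 7 was also the library highest in Ucn3 and Crhr1 within the HFD group. Vipr2 was low in HFD-O304 replicate 5, at 37.4 against 46.9 to 54.1, and Pde4d was high in HFD-O304 replicate 6, at 403 against 290.0 to 335. The causes were not tested.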

How the results depend on the processing

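The log2 differences of Ucn3, Crhr1 and Crhr2 moved by less than the spread between replicates in 279 of 279 alternatives. That spread is the SD of log2 normalized counts pooled over the groups compared, a coarse measure. For Ucn3 the SD was 0.16 in RD and 0.38 in HFD islets. A shift of its difference between HFD and RD islets from -0.32 to -0.064, in replicates 5 to 7, was therefore still within it. Of 899 alternatives for the 29 calls of pathway genes, 806 stayed past the threshold, 93 did not and 0 reversed. Counts of calls moved more. In HFD vs RD islets, 963 genes became 1758 with DESeq2, 1611 with the library set as covariate, 635 with only those groups fitted, 587 in replicates 1 to 4, 486 in replicates 5 to 7 and 590 to 1590 with 1 library left out (590 without RD replicate 7, 598 without HFD replicate 4, 1590 without HFD replicate 7). The 5 pathway genes became 2 in replicates 5 to 7 and 3 to 6 with 1 library left out, 3 without RD replicate 7 or HFD replicate 4. In HFD-O304 vs HFD islets, 3230 genes became 1994 and 1577 in replicates 1 to 4 and 5 to 7, and the 20 pathway genes 11 in the latter. In HFD-O304 vs RD islets, 356 genes became 727 with DESeq2, 543 with the library set, 88 in replicates 1 to 4, 184 without HFD-O304 replicates 1 and 2, and 223 to 423 with 1 library left out (235 without HFD-O304 replicate 1, 223 without replicate 5). The 4 pathway genes became 8 with DESeq2, 7 with the library set, 0 in replicates 1 to 4, 2 without HFD-O304 replicates 1 and 2, and 2 to 7 with 1 library left out (2 without RD replicate 3, 7 without HFD replicate 1). Fewer libraries were fitted in the subsets. The other causes were not tested.

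Replicate numbers were not used to pair the samples in the main fit. Deviations of same-numbered samples from their group means correlated by 0.199, 0.137 and 0.294 on average, against -0.034, -0.019 and -0.048 for samples of other numbers. The correlation was over 0.1 in 4, 5 and 6 of 7 pairs, and 3, 2 and 2 of 7 samples correlated best with their own number. Samples of the same number were thus more alike on average, but not in every pair. The replicate block gave 1577, 3763 and 543 genes, 6, 25 and 5 pathway genes, and log2 differences of -0.34, 0.54 and 0.20 for Ucn3, -1.72, 2.62 and 0.90 for Crhr1, and -0.20, 0.19 and -0.013 for Crhr2, in the order of the comparisons above. With 8 to 149 read pairs per library on the receptors, counting error bounds what can be read of them, at 27.6% for Crhr1 and 17.4% for Crhr2 in HFD islets.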
